A study of Homo sapiens with 12 samples.

Results

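Integrin and focal adhesion genes encode the receptors that hold a cell on its matrix and the proteins that tie those receptors to actin. The 41 genes were chosen by name as known members of this machinery (17 integrin subunits and 24 cytoplasmic proteins) from the 35238 genes of the table, and all 41 were present. The cells were HK-2, an established line of immortalised human kidney cells from the proximal tubule, sequenced as bulk RNA in 4 groups of 3 libraries. Every cell received 10 nM of short interfering RNA, either a scrambled control (SCR) or siB, which targets POLR2A, the gene of the largest RNA polymerase II subunit. At the same time the cells were given DMSO as vehicle, or aristolochic acid I (AAI) at 25 µM, a toxin from Aristolochia plants that forms DNA adducts, and RNA was taken after 24 hours. The groups were SCR DMSO, SCR AAI, siB DMSO and siB AAI. The labels did not say that the 3 libraries of a group came from separate cultures, so p-values measure only the spread between these libraries, which may be technical. All values come from 1 cell line.

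Integrins are pairs of an alpha and a beta subunit. Outside the cell the pair binds collagen, laminin, or fibronectin and related ligands, and inside the cell the beta tail binds talin and kindlin, which switch the receptor on. Vinculin, alpha-actinin, filamin and tensin connect this core to actin filaments. Kinases such as FAK and SRC, and scaffolds such as paxillin, pass on the signal. In the proximal tubule, integrins with the beta 1 subunit anchor the epithelium to its basement membrane, and integrins that contain alpha V can also bind latent TGF-beta.

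Depth ran from 15844015 to 42805294 reads per library, so that 3 reads, the limit that a count of 0 allows, corresponded to 0.0701 to 0.189 CPM (counts per 1000000 reads). This limit covers counting error only. POLR2A, the siRNA target, was at 258 to 306 CPM in SCR DMSO and 138 to 143 CPM in siB DMSO, and at 673 to 729 CPM in SCR AAI and 210 to 266 CPM in siB AAI, without overlap between the siRNAs. All 5 epithelial markers (EPCAM, CDH1, KRT8, KRT18, KRT19) had a mean of at least 1 CPM, and their sum was 1107 to 1906 CPM per library. Only 3 of 8 proximal tubule markers did so (GGT1, SLC5A2 and SLC34A1), and SLC22A6 was at or under 3 reads in every library. One control library, SCR DMSO replicate 2, stood apart from its group. It was the lowest of the 6 DMSO libraries for 16 of the 40 adhesion genes measurable in DMSO (46.1% of all genes tested), among them ITGA1, ITGAV, ITGB1, ITGB6 and ITGB8. It was the highest for 17 of 40 (23.7% of all genes), among them ACTN1, ACTN4, ZYX, FLNA, VASP and TNS1. Calls that rest on SCR DMSO are therefore also given without it. Of the 41 genes, 33 overlap another annotated gene, among them VCL (AP3M1, opposite strand), ITGA1 (PELO, same strand) and ITGB2 (ITGB2-AS1), and reads of such pairs may be shared, since the strand setting of the counting is unknown.

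The promoters of 3 of the genes are shown, and each of these genes has both a change described below and a marked motif in its window. Changed genes without such a motif, TLN2 with the largest fall among them, are not shown. ITGA10 showed the largest rise, and VCL came nearest to a response to AAI that differed between siRNAs. ITGB6 fell in siB cells, a call kept in 10 of 15 alternatives. Each window covers 250 bases before and 50 after the RefSeq start on GRCh38.p14, printed along the gene's own strand, and capitals mark a TEAD motif (GGAATG, either strand) or a CArG box, the site of serum response factor. The windows are chr1:145910001-145910300 (minus strand) for ITGA10, chr10:73997866-73998165 (plus strand) for VCL and chr2:160200223-160200522 (minus strand) for ITGB6.
ITGA10: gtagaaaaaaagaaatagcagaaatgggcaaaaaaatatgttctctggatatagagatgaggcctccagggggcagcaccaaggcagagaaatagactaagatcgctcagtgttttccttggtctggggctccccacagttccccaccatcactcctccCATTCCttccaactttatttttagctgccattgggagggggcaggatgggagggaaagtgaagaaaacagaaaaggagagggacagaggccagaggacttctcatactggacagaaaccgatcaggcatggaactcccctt
VCL: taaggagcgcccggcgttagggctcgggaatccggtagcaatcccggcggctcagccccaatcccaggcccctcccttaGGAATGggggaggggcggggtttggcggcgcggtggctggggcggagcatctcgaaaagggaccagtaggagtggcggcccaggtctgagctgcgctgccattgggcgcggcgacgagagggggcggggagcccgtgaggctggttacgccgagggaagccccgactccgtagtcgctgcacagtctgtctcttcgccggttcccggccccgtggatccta
ITGB6: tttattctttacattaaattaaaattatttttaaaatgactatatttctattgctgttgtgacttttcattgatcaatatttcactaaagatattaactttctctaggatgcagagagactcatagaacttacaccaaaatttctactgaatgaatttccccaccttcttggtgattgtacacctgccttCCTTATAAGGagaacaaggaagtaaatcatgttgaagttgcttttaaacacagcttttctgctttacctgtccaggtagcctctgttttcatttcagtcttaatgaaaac
Of the 41 genes, 31 had a promoter in the RefSeq table. The TEAD motif was in 4 of these 31 windows (ITGA10, ITGB1, VCL and ITGA5), against 14% of all 27305 promoters. A CArG box was in 2 (ITGB6 and FLNA), against 1.29% of all promoters. The AP-1 motif (TGANTCA) was in 4 (LPXN, ITGA5, BCAR1 and ACTN4), against 7.76%, and TATAAA was in 1 (ITGA6), against 12%. Neither a TEAD motif nor a CArG box was found in the windows of TLN2, ACTN1, PARVB, TNS1, TNS3 or TGFB1I1. The median GC content of the windows was 72%, against 58.3% over all promoters. A motif match describes the letters of the window and does not show binding.

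Without AAI, HK-2 cells had transcripts of most integrin subunits, at levels that differed widely when set per kb of the canonical transcript. In SCR DMSO, ITGA3, a laminin receptor subunit, was at 234 ± 71.7 CPM per kb (SD, n = 3) and ITGB1, the beta subunit shared by most receptors, at 226 ± 131 CPM per kb. These did not differ beyond their spread. ITGB3 (89.9 ± 18.7 CPM per kb), ITGAV (73.9 ± 53.9), ITGB5 (55.3 ± 16) and ITGA5 (46.2 ± 10.9), the subunits of vitronectin and fibronectin receptors, came next, and their ranges over the DMSO libraries overlapped between neighbours in this order. ITGB8 (14.5 ± 12.8), ITGB6 (7.47 ± 6.34), ITGB4 (7.45 ± 1.15) and ITGB2 (7.20 ± 3.04) were lower. ITGA6, ITGA7, ITGA1, ITGA4 and ITGA2 lay between 4.25 and 0.670 CPM per kb. The collagen receptor subunits ITGA11 (0.110 ± 0.0396) and ITGA10 (0.0785 ± 0.0415) were the lowest, and ITGA10 was at or under 3 reads in 2 siB DMSO libraries.

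Spread between replicates was uneven among the genes. The ratio of the highest to the lowest library in SCR DMSO was 18.3 for ITGA1, 15.6 for ITGB8, 6.48 for ITGB6 and 5.15 for ITGAV. It was 1.04 for PARVA, 1.16 for TNS3 and 1.25 for VCL. Its median over the 40 genes measurable in DMSO was 1.77, and 1.82 over all genes tested in DMSO. In siB DMSO both medians were 1.24. Differences in ITGA1, ITGB6, ITGB8 or ITGAV that start from SCR DMSO were thus measured with far less precision than those in VCL or TNS3.

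**Figure D1:**
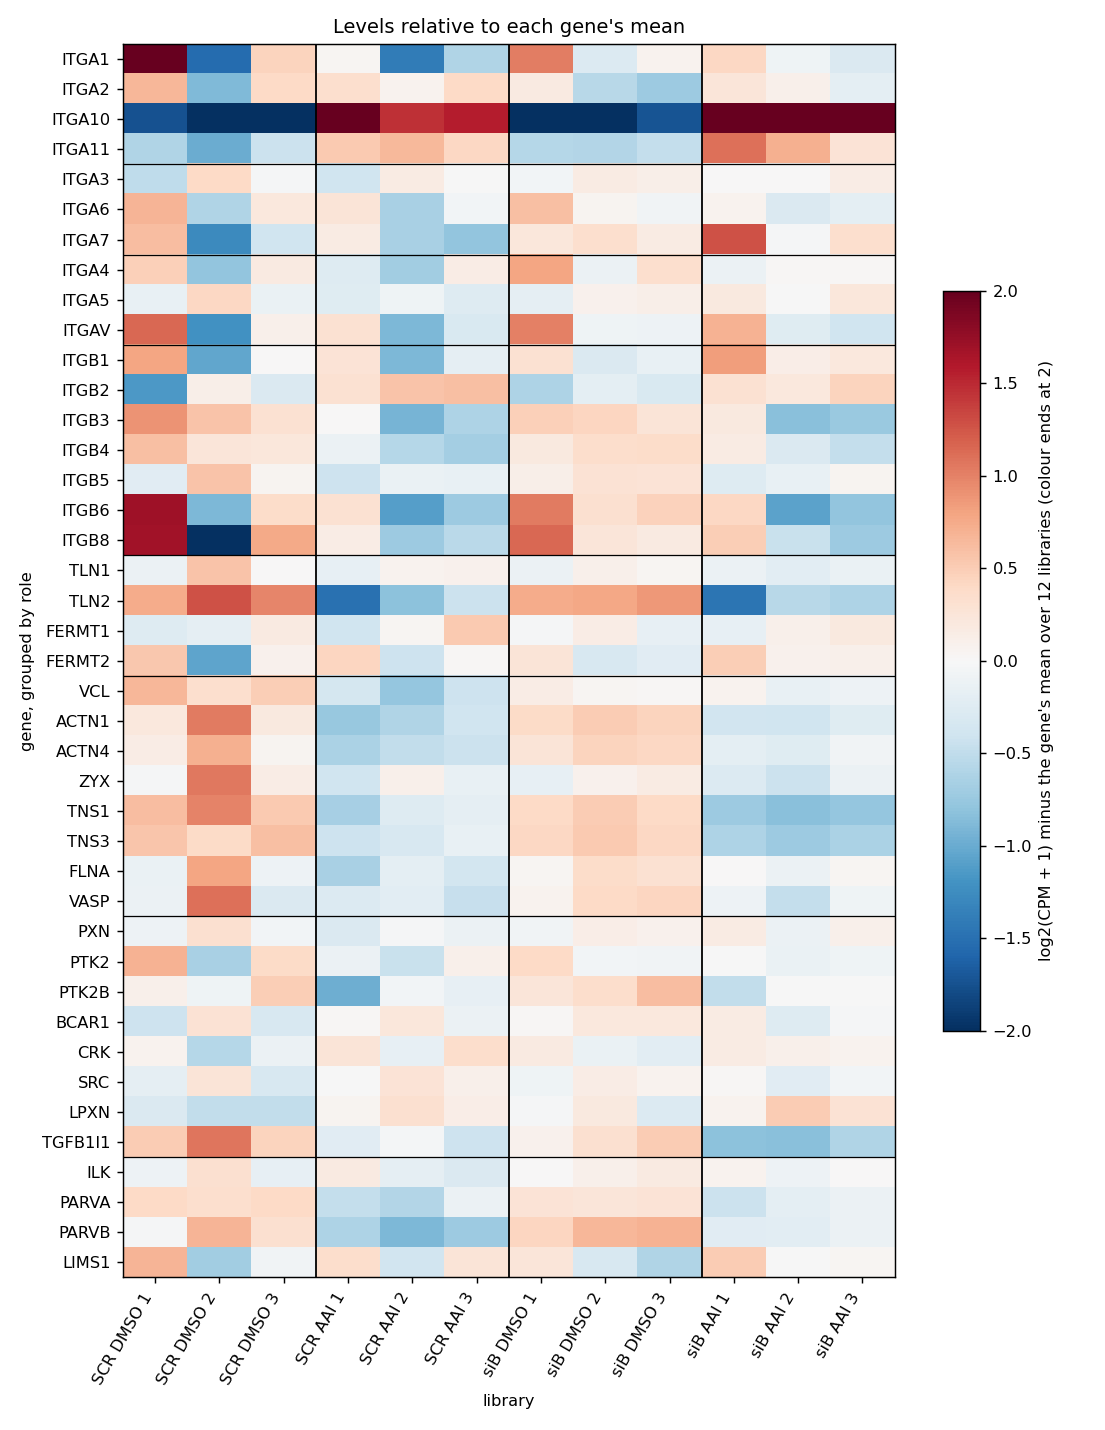
Log2(CPM + 1) of the 41 genes (rows, grouped by role from alpha subunits at the top to the ILK complex at the bottom) in the 12 libraries (columns), relative to each gene's mean over all libraries, with colours that end at 2 on the log2 scale. SCR DMSO replicate 2 is blue for ITGA1, ITGAV, ITGB1, ITGB6 and ITGB8 and red for ACTN1, ZYX, FLNA and VASP, and ITGA10 is red in all 6 AAI libraries.

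AAI versus DMSO in SCR cells gives the response of adhesion genes to injury. The talin gene TLN2 fell most, the actin linker genes VCL, ACTN1 and TNS1 (3 of 8 actin linkers), PARVB and the integrin subunit ITGB3 fell too, and 2 collagen receptor subunits rose from very low levels. By limma, with a call at an adjusted p under 0.05 and at least 2-fold, 6 of 41 genes were lowered (2.73% of all genes tested) and 2 of 41 were raised (7.73% of all genes). The lowered genes were ITGB3, TLN2, VCL, ACTN1, PARVB and TNS1, and the raised genes were ITGA10 and ITGA11. Neither raised gene reached 1 CPM in all 3 SCR DMSO libraries, so both passed the filter on low values only with AAI libraries. The raised count is thus a description. A further 2, TNS3 and TGFB1I1, had an adjusted p under 0.05 with a change below 2-fold, so that without a fold limit 8 genes were lower (3.36% of all genes) and 2 higher (8.98%). An unadjusted p under 0.05 was found for 15 of 41 genes (27.0% of all genes). Same-numbered libraries of these groups deviated together, and with the replicate number as a block these counts were 11 (6.40%) and 3 (14.7%), with the same 6 and 2 genes past 2-fold. In all, 30 of 41 changes lay below 0 (38.2% of all genes), and the median change was -0.30 on the log2(CPM + 1) scale, against 0.18 over all genes. The libraries did not overlap between DMSO and AAI for 12 genes that were lower with AAI (11.5% of all genes) and for 4 that were higher (22.2%). The higher genes were ITGA10, ITGA11, ITGB2 and LPXN. LPXN, at 1.25, 0.958 and 0.956 CPM in SCR DMSO, also met the filter only with AAI libraries. The higher count without overlap is therefore a description too. In bulk RNA, fewer cells that express a gene and less RNA per cell cannot be told apart.

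By role, the actin linkers had the lowest median change, -0.82 over 8 genes, and all 8 lay below 0, 3 of them called lowered. The beta subunits (median -0.45, 7 genes) had 1 lowered gene, and the ILK-PINCH-parvin complex (median -0.44, 4 genes) had 1. The talins and kindlins had a median of -0.01 over 4 genes and 1 lowered gene. Kinases and scaffolds had a median of -0.01 over 8 genes, with no call in either direction. The laminin-binding alpha subunits (median -0.08, 3 genes) and the fibronectin and RGD-binding alpha subunits (median -0.24, 3 genes) had none either. Changes of these 6 alpha subunits ran from -0.31 for ITGAV to -0.03 for ITGA3, with ITGA4, ITGA5, ITGA6 and ITGA7 between them and adjusted p from 0.524 to 0.961.

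**Figure D2:**
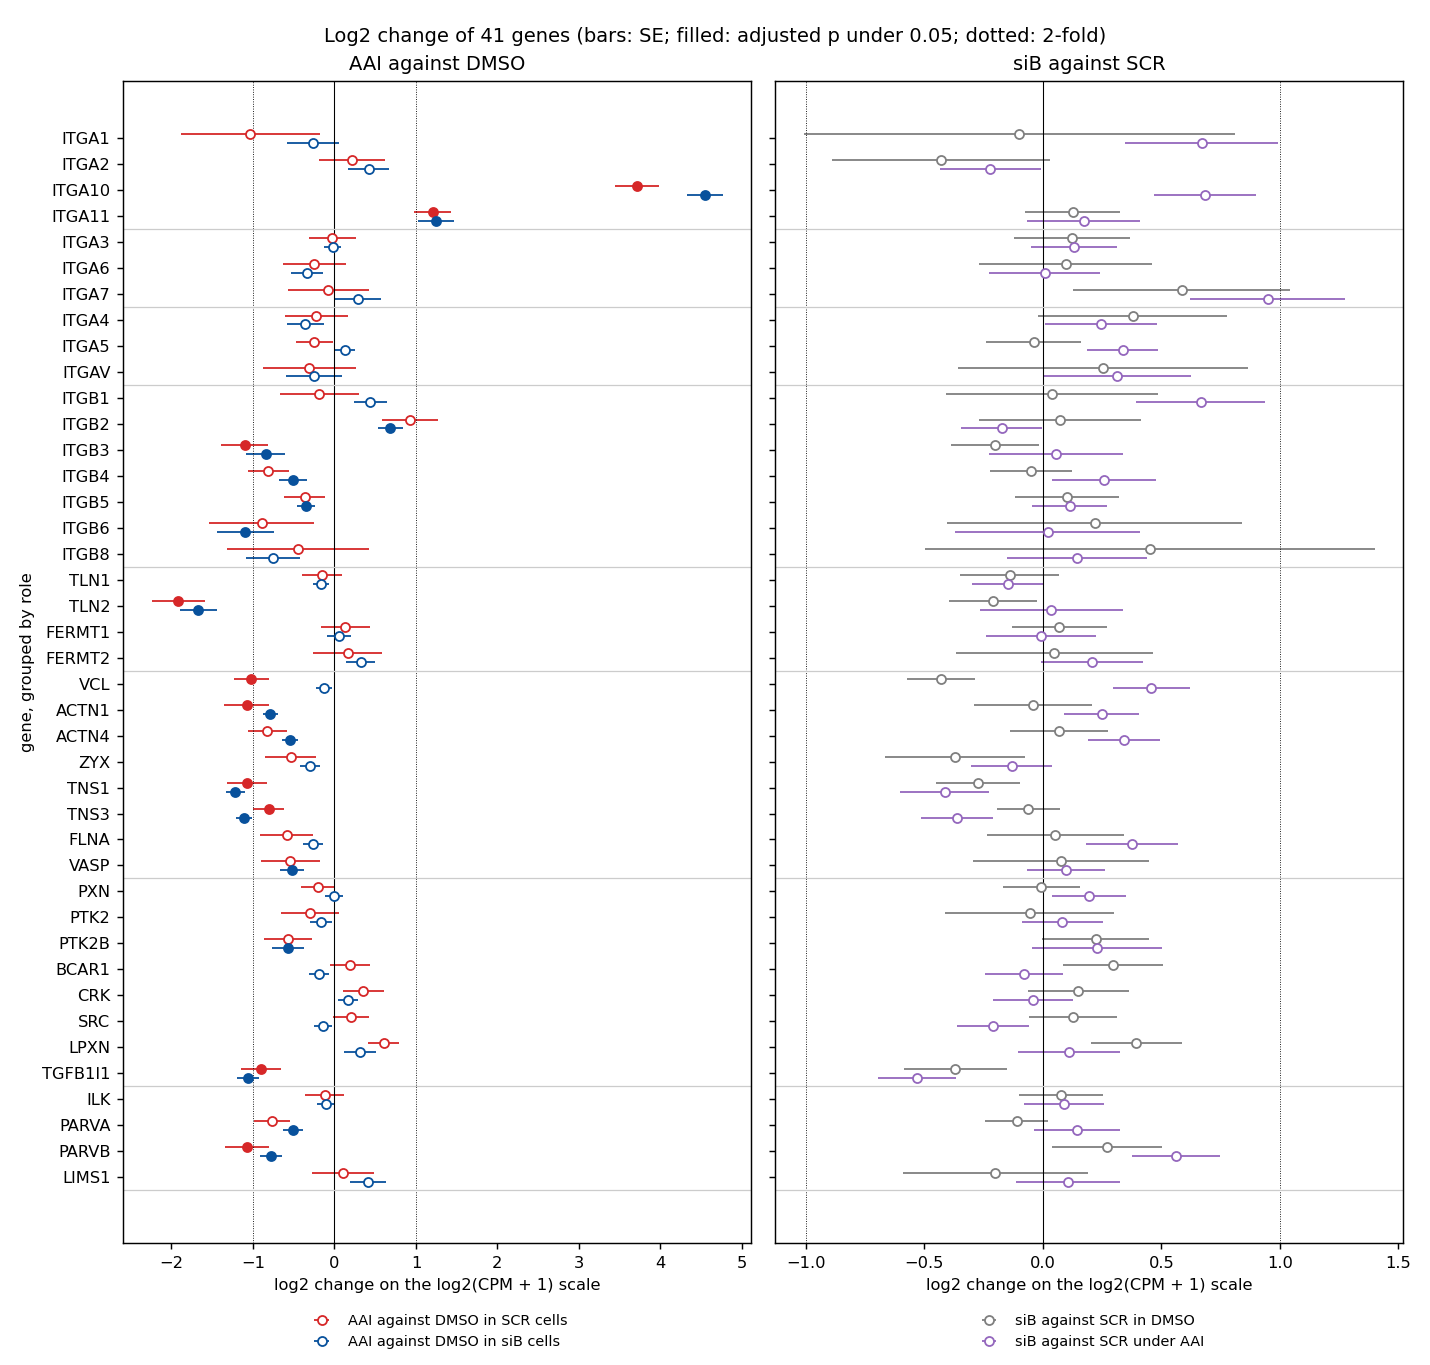
Log2 change of each of the 41 genes (rows, grouped by role), with AAI versus DMSO on the left (red, SCR cells; blue, siB cells) and siB versus SCR on the right (grey, in DMSO; purple, under AAI). Points are the limma estimates on the log2(CPM + 1) scale, bars are 1 SE, filled points have an adjusted p under 0.05 and dotted lines mark 2-fold. ITGA10 stands apart on the right of the AAI panel and TLN2 on its left, and no point of the siB versus SCR panel is filled.

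TLN2 encodes talin 2, one of the 2 talins that activate integrins, and lies on chromosome 15 (62390526 to 62844631, plus strand, hg38). It was at 37.0, 53.7 and 43.8 CPM in SCR DMSO (replicates 1, 2 and 3) and at 7.01, 11.9 and 15.8 CPM in SCR AAI. The highest AAI library was below the lowest DMSO library. TLN2 fell by 1.92 on the log2(CPM + 1) scale (SE 0.33, adjusted p = 0.00787), the lowest value among the 41 genes, and was called lowered in each of 15 alternatives (adjusted p 6.0e-04 to 0.0377). TLN1, the other talin gene, went from 428 ± 116 to 378 ± 36.7 CPM (SD, n = 3), a change of -0.15 (95% interval -0.71 to 0.40).

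VCL encodes vinculin, which binds talin and actin and strengthens adhesions under force (chromosome 10, 73995193 to 74121363, plus strand). Its levels were 872, 696 and 776 CPM in SCR DMSO and 429, 321 and 410 CPM in SCR AAI. All 3 AAI libraries were below all 3 DMSO libraries, and VCL fell by 1.02 (SE 0.21, adjusted p = 0.0186). ACTN1, an actin cross-linker that also binds integrin tails (chromosome 14, 68874128 to 68979440, minus strand), was at 643, 1138 and 636 CPM in SCR DMSO and 325, 363 and 418 CPM in SCR AAI. Replicate 2 was the high DMSO library, and the groups did not overlap. ACTN1 fell by 1.08 (SE 0.28, adjusted p = 0.0419). Its homologue ACTN4 changed by -0.82 (SE 0.24) with an adjusted p of 0.0618. VCL, ACTN1 and ITGB3 belonged to the junction list that the study chose on these samples, so their fall is not independent evidence.

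TNS1 and TNS3 are tensins, which bind beta subunit tails and actin in long-lived adhesions. TNS1 (chromosome 2, 217799588 to 218033982, minus strand) was at 53.7, 69.6 and 50.0 CPM in SCR DMSO and 21.4, 28.9 and 30.6 CPM in SCR AAI. It fell by 1.07 (SE 0.25, adjusted p = 0.0285). TNS3 (chromosome 7, 47275154 to 47582558, minus strand) was at 162, 143 and 166 CPM and then at 81.7, 87.5 and 98.9 CPM. The groups of both tensins were apart, and TNS3 changed by -0.81 (SE 0.19, adjusted p = 0.0323). FLNA, ZYX and VASP, which cross-link actin or promote its assembly, changed by -0.59, -0.54 and -0.54 with adjusted p of 0.291, 0.316 and 0.380. FLNA, an actin cross-linker that also holds integrins inactive, went from 6389 ± 2500 to 4095 ± 625 CPM without overlap of the groups.

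PARVB encodes beta-parvin, which joins integrin-linked kinase to actin (chromosome 22, 43999211 to 44172939, plus strand). It was at 18.2, 30.4 and 23.4 CPM in SCR DMSO and 11.7, 9.52 and 10.8 CPM in SCR AAI, without overlap. PARVB fell by 1.07 (SE 0.27, adjusted p = 0.0410), and it overlaps SAMM50 on the same strand. Among its partners, PARVA changed by -0.77 (adjusted p = 0.0603), ILK by -0.12 (adjusted p = 0.779) and LIMS1 by 0.11 (adjusted p = 0.885). Among the signalling genes, TGFB1I1, which encodes the paxillin relative Hic-5 (chromosome 16, 31471585 to 31477960, plus strand), was at 115, 171 and 111 CPM in SCR DMSO and 69.0, 78.4 and 60.8 CPM in SCR AAI. It did not overlap between the groups and changed by -0.90 (SE 0.24, adjusted p = 0.0474). PXN, PTK2 (FAK), SRC, BCAR1 and CRK changed by -0.20, -0.30, 0.20, 0.19 and 0.35, with adjusted p from 0.408 to 0.654. LPXN, the leukocyte relative of paxillin, changed by 0.60 (adjusted p = 0.0763) and PTK2B by -0.57 (adjusted p = 0.259).

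Of the beta subunits, ITGB3 pairs with alpha V in a receptor for vitronectin and other RGD ligands (chromosome 17, 47253827 to 47313743, plus strand). It was at 652, 519 and 432 CPM in SCR DMSO and 353, 182 and 227 CPM in SCR AAI. The groups were separate, and ITGB3 fell by 1.10 (SE 0.29, adjusted p = 0.0462). ITGB1 (chromosome 10, 32887273 to 33005792, minus strand) was at 1359, 384 and 791 CPM in SCR DMSO and 952, 422 and 697 CPM in SCR AAI. Its groups overlapped fully, and its change of -0.19 had a 95% interval of -1.30 to 0.93. ITGB4, the hemidesmosome subunit, changed by -0.81 (adjusted p = 0.0798) and ITGB2, the leukocyte subunit, by 0.93 (adjusted p = 0.127), each without overlap between the groups. ITGB6, ITGB8 and ITGB5 changed by -0.89, -0.45 and -0.36 with adjusted p of 0.417, 0.776 and 0.394.

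ITGA10 and ITGA11 encode the alpha subunits of collagen receptors best known from cartilage and fibroblasts. ITGA10 (chromosome 1, 145891208 to 145910111, minus strand) was at 0.647, 0.304 and 0.257 CPM in SCR DMSO, from 14, 13 and 7 reads, and at 23.4, 14.2 and 15.4 CPM in SCR AAI, from 423, 314 and 394 reads. The ratio of the mean levels was 43.9, and the gene rose by 3.71 on the log2(CPM + 1) scale (SE 0.27, adjusted p = 1.5e-04), which understates the change of so low a gene. It passed the filter on low values only through its AAI libraries and so had to differ. ITGA11 (chromosome 15, 68296532 to 68432163, minus strand) was at 1.20, 0.677 and 1.47 CPM in SCR DMSO and 3.81, 4.21 and 3.45 CPM in SCR AAI. ITGA11 rose by 1.20 (SE 0.22, adjusted p = 0.0108). With 1 SCR DMSO library under 1 CPM, it too met the filter only with AAI libraries, so this rise is a description. The summed level of 4 fibroblast markers was 15.6 to 44.5 CPM in SCR DMSO and 20.3 to 31.4 CPM in SCR AAI, and its part in these results was not tested. The other collagen receptor subunits, ITGA1 and ITGA2, changed by -1.03 (95% interval -3.00 to 0.94) and 0.21 (-0.72 to 1.15).

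Most of the lowered calls depended on single libraries. Without SCR DMSO replicate 3 only TLN2 was called lowered, as without SCR AAI replicate 2 or 3, and without SCR AAI replicate 1 TLN2 and ITGB3 were. Without SCR DMSO replicate 2 the count stayed at 6, but the genes were ITGA1, ITGB3, ITGB6, ITGB8, TLN2 and VCL, with ITGB2 raised in addition. ITGA11 was not called without SCR AAI replicate 2 (adjusted p 0.0532). With median-ratio scaling, which moved the median of all genes by -0.19, 8 genes were lowered, the same 6 with ITGB4 and TNS3.

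**Figure D3:**
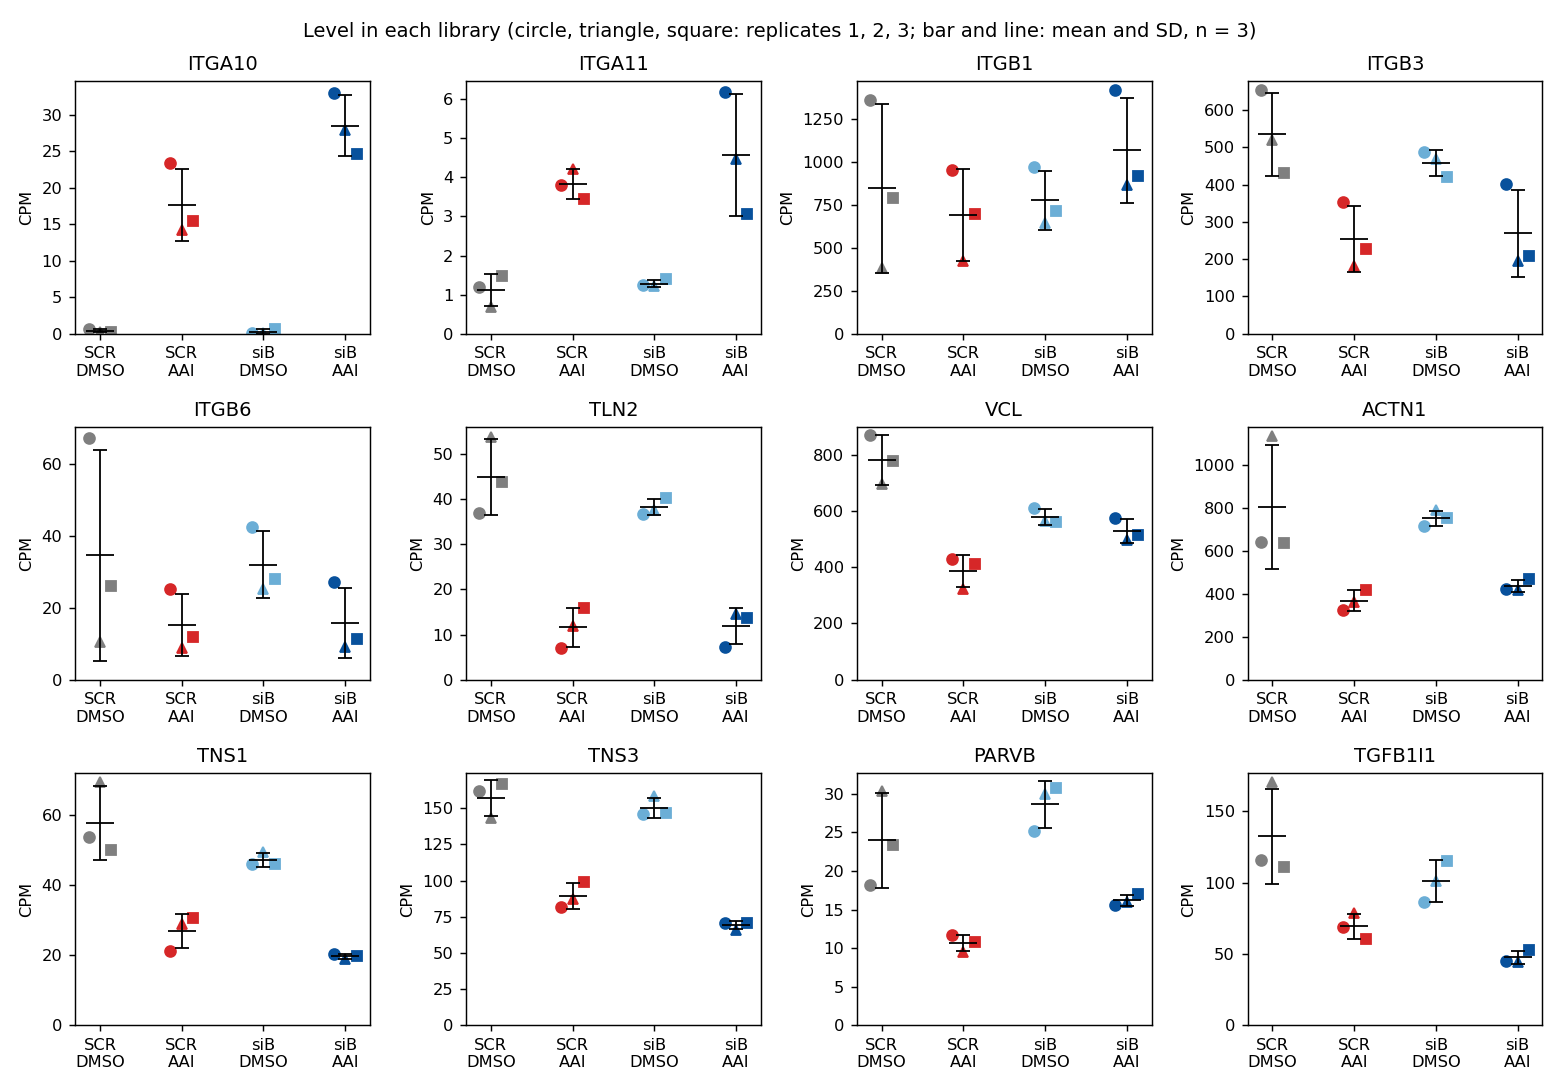
Level in CPM (y axis, starting at 0) of 12 genes in each library of the 4 groups (x axis), with replicates 1, 2 and 3 as circle, triangle and square, and the mean and SD as a bar with whiskers. ITGA10 lies between 14.2 and 33.0 CPM in the 6 AAI libraries and under 0.67 CPM in the DMSO libraries, whereas TLN2 lies between 7.01 and 15.8 CPM with AAI and between 36.8 and 53.7 CPM without.

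In siB cells, AAI versus DMSO shows the same injury with less POLR2A. TLN2, TNS1, TNS3, TGFB1I1 and ITGB6 fell at least 2-fold, and ITGA10 and ITGA11 rose. Thus 5 of 41 genes were lowered (5.79% of all genes tested) and 2 were raised (13.9%). At an adjusted p under 0.05 without a fold limit, 14 genes were lower (21.8% of all genes), among them ITGB3, ITGB4, ITGB5, ACTN1, ACTN4, PARVA, PARVB, VASP and PTK2B, and 3 were higher (30.4%), ITGB2 besides the 2 raised genes. Changes below 0 were seen for 29 of 41 genes (44.1% of all genes). The median change was -0.25, against 0.10 over all genes, and median-ratio scaling moved the latter by -0.11. Groups did not overlap for 15 genes that were lower with AAI (26.6%) and 3 that were higher (34.2%). ITGA10, among the higher genes, met the filter only through AAI libraries, so the higher and raised counts are descriptions.

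The tensins varied little between the libraries of a group. TNS1 was at 46.1, 49.6 and 45.9 CPM in siB DMSO and 20.4, 19.0 and 19.8 CPM in siB AAI, a fall of 1.22 (SE 0.12, adjusted p = 4.1e-05). TNS3 was at 146, 158 and 146 CPM and then at 70.9, 66.1 and 70.6 CPM, and fell by 1.11 (SE 0.10, adjusted p = 2.6e-05). TGFB1I1 went from 86.2, 101 and 115 CPM to 45.3, 44.7 and 52.8 CPM and fell by 1.06 (SE 0.13, adjusted p = 1.9e-04). None of these 3 genes overlapped between the groups. TLN2 was at 36.8, 37.7 and 40.2 CPM in siB DMSO and at 7.20, 14.5 and 13.7 CPM in siB AAI, and fell by 1.67 (SE 0.23, adjusted p = 3.1e-04).

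ITGB6, an epithelial subunit whose pairing with alpha V activates latent TGF-beta, lies on chromosome 2 (160099667 to 160200313, minus strand). It was at 67.4, 10.4 and 26.2 CPM in SCR DMSO and 25.2, 8.88 and 11.8 CPM in SCR AAI, and at 42.7, 25.4 and 28.0 CPM in siB DMSO and 27.1, 9.05 and 11.2 CPM in siB AAI. Replicate 1 was the highest in every group, and the siB groups overlapped. ITGB6 fell by 1.09 in siB cells (SE 0.35, adjusted p = 0.0263), a call that was lost with no filter (adjusted p = 0.0529), with all 4 groups in 1 fit (0.181), and without siB DMSO replicate 1 (0.0739), siB AAI replicate 2 (0.101) or siB AAI replicate 3 (0.105). Without siB AAI replicate 1, ITGB3 and ITGB8 joined the lowered genes. Without siB DMSO replicate 3, TGFB1I1 missed the fold limit, with adjusted p at most 0.00142 over its 15 alternatives.

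ITGA10 was at 0.0855, 0.0902 and 0.669 CPM in siB DMSO, from 2, 2 and 12 reads, and at 33.0, 28.0 and 24.7 CPM in siB AAI. It rose by 4.55 (SE 0.22, adjusted p = 9.2e-07), again a gene that passed the filter only through AAI libraries. ITGA11 was at 1.24, 1.22 and 1.39 CPM and then at 6.19, 4.48 and 3.05 CPM, and rose by 1.25 (SE 0.22, adjusted p = 0.00130). Both were separate between the groups. ITGB2 changed from 20.1 ± 3.10 to 32.8 ± 2.79 CPM (0.69, SE 0.15, adjusted p = 0.00426). The summed level of 5 leukocyte markers was 0.446 to 1.35 CPM in siB DMSO and 4.62 to 7.13 CPM in siB AAI (0.607 to 1.85 CPM in SCR DMSO and 1.45 to 3.37 CPM in SCR AAI). Of these markers CD3E and TYROBP were at 0 in every library, and PTPRC and CD14 had the highest means in siB AAI. Their part in the ITGB2 result was not tested.

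The make-up of beta subunit transcripts shifted with AAI. ITGB3 was 19.3%, 30.8% and 19.6% of the summed CPM per kb of the 7 beta subunits in SCR DMSO and 15.5%, 14.4% and 12.9% in SCR AAI. It was 18.8%, 23% and 20.1% in siB DMSO and 13.0%, 9.87% and 9.90% in siB AAI. The AAI libraries lay below the DMSO libraries with either siRNA. ITGB1 was 36.2% to 63.8% of the sum in SCR DMSO and 53.1% to 66.6% in SCR AAI, which overlap, and 50.4% to 59.6% in siB DMSO and 68.9% to 72.4% in siB AAI, which do not. The ratio of ITGB3 to ITGB1 CPM, which does not depend on scaling between libraries, was 0.792 ± 0.486 in SCR DMSO and 0.376 ± 0.0532 in SCR AAI, and 0.605 ± 0.113 in siB DMSO and 0.246 ± 0.0334 in siB AAI (SD, n = 3). Replicate 2 gave the highest ratio in SCR DMSO, 1.35. These shares were described without a test.

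**Figure D4:**
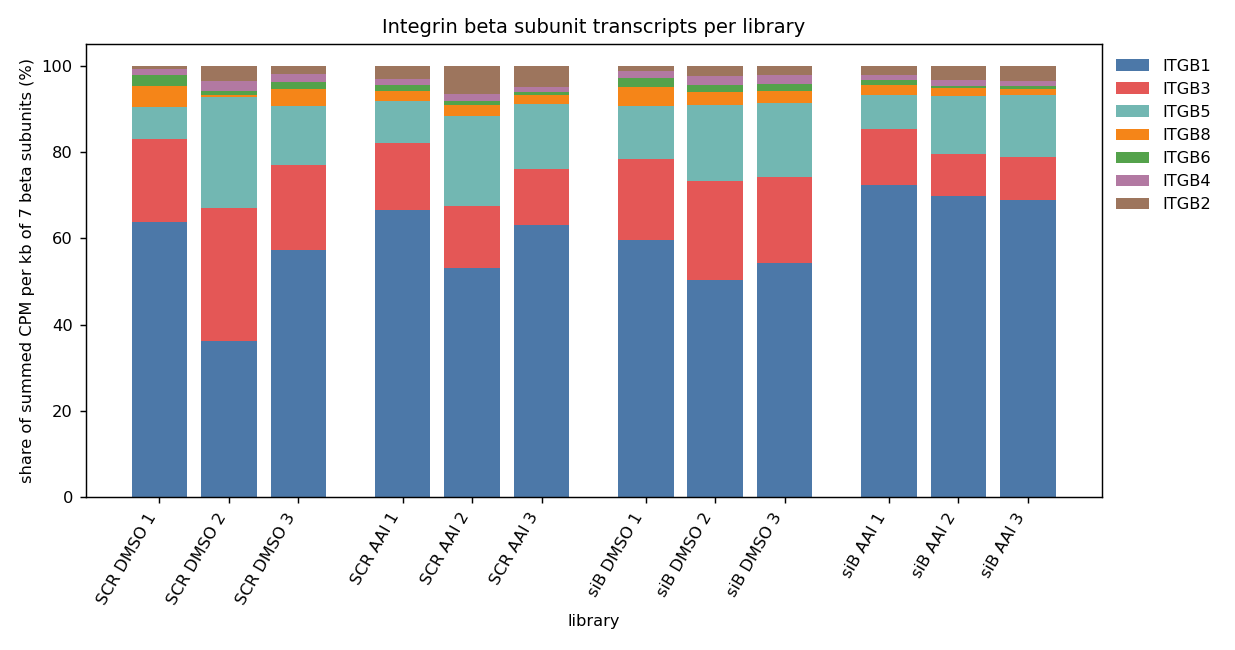
Share of each of 7 beta subunits (colours) in their summed CPM per kb of canonical transcript (y axis, %) for each of the 12 libraries (x axis). The ITGB3 band narrows from between 18.8% and 30.8% in the DMSO libraries to between 9.87% and 15.5% in the AAI libraries, and ITGB1 is the widest band in every library.

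The response to AAI was set against gene span, the distance from the start to the end of a gene. Under 30 kb (short) there were 7 genes, from 30 to 100 kb (medium) 18, and over 100 kb (long) 16, and the classes are those of the study. In SCR cells the median change was -0.54 for short, -0.11 for medium and -0.79 for long adhesion genes, against 0.21, 0.26 and -0.09 over all genes of each class. Of the 6 lowered genes 5 were long (ACTN1, VCL, PARVB, TNS1 and TLN2), and ITGB3 was medium. Over all genes tested, 5.60% of long, 1.13% of medium and 2.76% of short genes were lowered. TLN2, with the largest fall, was also the longest of the 41 genes, at 454.1 kb. The rank correlation of change with span was -0.35 across the 41 genes and -0.13 across 13201 genes of the table. These values are across genes of the same libraries, and genes are not independent replicates.

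In siB cells the medians were -0.26, -0.15 and -0.43 for short, medium and long adhesion genes, against 0.05, 0.18 and -0.03 over all genes, and the rank correlations were -0.28 and -0.00. Long genes were not uniform. ITGA11, at 135.6 kb, was raised with either siRNA, and PTK2, at 344317 bp, changed by -0.30 in SCR cells and -0.16 in siB cells without passing the test. Among short genes TGFB1I1 (6376 bp) fell in siB cells and ITGA10 (18904 bp) rose in both. For siB versus SCR under AAI the medians by class were 0.10, 0.12 and 0.13, against -0.07, 0.01 and 0.13 over all genes, with rank correlations of 0.05 across the 41 genes and 0.18 across all genes. ITGB1 is long by the GENCODE span (118520 bp) and medium by the RefSeq span (57913 bp).

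**Figure D5:**
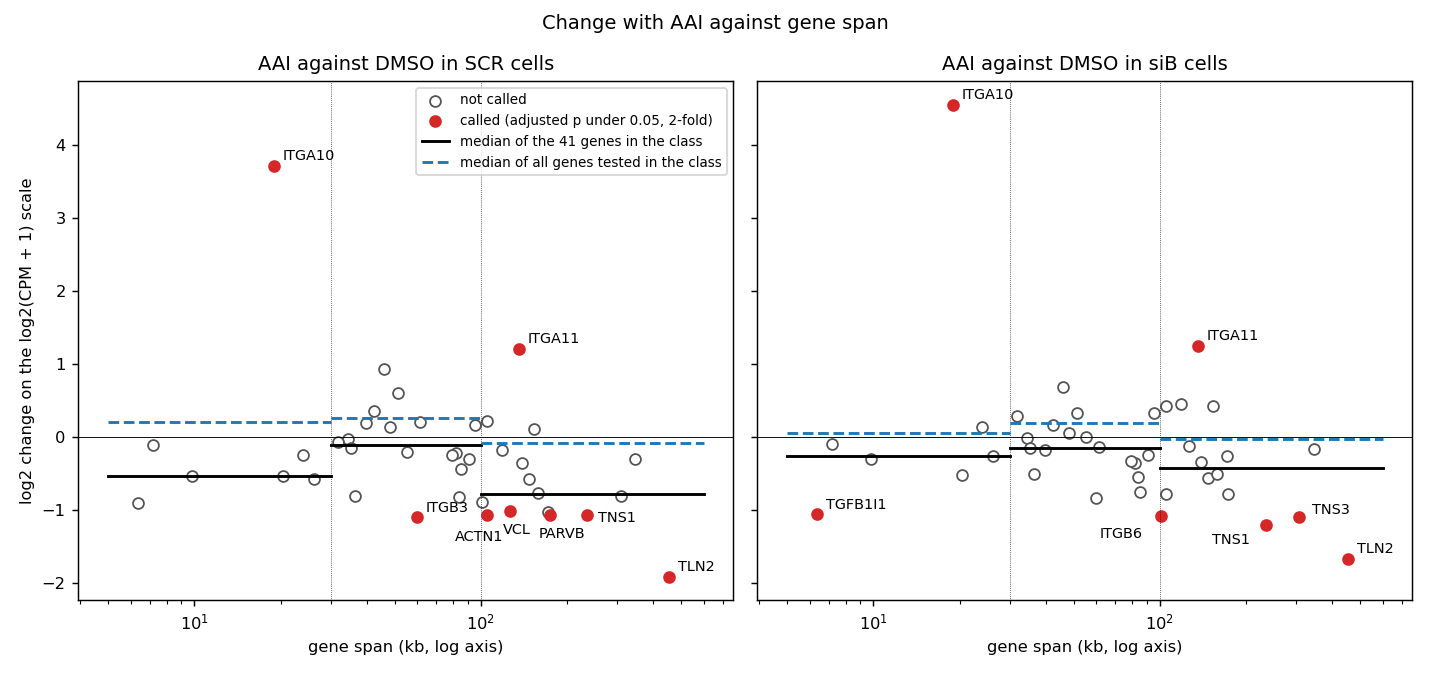
Log2 change with AAI (y axis, log2(CPM + 1) scale) against gene span in kb (x axis, log axis) for the 41 genes in SCR cells (left) and siB cells (right), with called genes in red and named. Solid lines are the medians of the 41 genes in each span class and dashed lines those of all genes tested. The solid lines lie below the dashed lines in all 3 classes of both panels, and TLN2 is lowest and farthest right.

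Knockdown under injury was addressed by siB AAI versus SCR AAI. No adhesion gene passed the test by limma, with or without a fold limit (5.49% of all genes were higher and 3.79% lower without one). Raised and lowered calls numbered 0 of 41 each, against 3.04% and 0.629% of all genes, and 10 of 41 genes had an unadjusted p under 0.05 (25.5% of all genes). With voom, the count was also 0. Changes above 0 were seen for 30 of 41 genes (50.3% of all genes), with a median of 0.11 against 0.00 over all genes. ITGA5, ITGA10, VCL, ACTN4, PARVB and FLNA were higher in siB AAI without overlap (6 of 41, against 15.1% of all genes), and TNS1, TNS3 and TGFB1I1 were lower without overlap (3 of 41, against 15.8%).

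The same-numbered libraries of these 2 groups also deviated together, and with the replicate number as a block 9 genes had an adjusted p under 0.05, still with 0 past 2-fold. In that blocked fit ITGA1, ITGA7, ITGA10, ITGB1, VCL, PARVB and FLNA were higher in siB cells (7 of 41, against 15.2% of all genes) and TNS1 and TGFB1I1 were lower (2 of 41, against 13.8%). ITGB1 was at 952, 422 and 697 CPM in SCR AAI and at 1416, 865 and 915 CPM in siB AAI, higher in siB in each numbered pair. Its change was 0.67 (SE 0.27, adjusted p = 0.146) and with the block 0.67 (SE 0.14, adjusted p = 4.7e-05). ITGA10 changed by 0.68 (adjusted p 0.0652, and 2.6e-04 with the block), PARVB by 0.56 (0.0758, and 0.00558) and TGFB1I1 by -0.53 (0.0635, and 0.00306). TNS1 changed by -0.41 (0.189, and 0.0380 with the block). Without SCR AAI replicate 1, ITGA1 and ITGA7 were called raised.

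Without injury, siB DMSO versus SCR DMSO gave 0 calls among the 40 genes tested in either direction by limma, as over all 13606 genes (0% of them), and 1 gene, VCL, had an unadjusted p under 0.05 (4.73% of all genes). ITGA10 was under the filter, at no more than 0.669 CPM. VCL was at 609, 565 and 561 CPM in siB DMSO, below all 3 SCR DMSO libraries, and changed by -0.43 (SE 0.14, adjusted p = 0.9998). PARVA and TNS1 were also lower without overlap (3 of 40 in all, against 3.64% of all genes), and LPXN was higher without overlap (1 of 40, against 8.28%). LPXN met the filter here only with siB libraries, so its higher level is a description. For ITGB1 the interval of the difference ran from -1.03 to 1.11, so that changes smaller than 2-fold were not detectable at this spread.

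Whether the response to AAI differed between siRNAs was tested as an interaction over all 4 groups. By limma 0 of 41 genes had an adjusted p under 0.05 (1.46% of all genes with a higher and 0.157% with a lower response in siB cells), and 2 of 41, VCL and ITGA10, had an unadjusted p under 0.05 (13.3% of all genes). VCL came nearest. It fell with AAI in SCR cells as given above, whereas in siB cells it was at 609, 565 and 561 CPM without and 575, 497 and 513 CPM with AAI, overlapping groups with a change of -0.13 (95% interval -0.35 to 0.09). The difference between the responses was 0.89 (SE 0.21, 95% interval 0.43 to 1.34, adjusted p = 0.0601). Over 20 alternatives the adjusted p ran from 0.0203 to 0.213 and was under 0.05 in 4. These were the fit without SCR DMSO replicate 2 (0.0203), the fit with the replicate number as a block (0.0303), median-ratio scaling (0.0322) and CPM without AC010970.2 (0.0358). That block also spans siB DMSO, whose comparisons did not pass the check of same-numbered libraries. Both the lower siB DMSO and the higher siB AAI level enter this difference. For ITGA10 it was 0.84 (SE 0.34, adjusted p = 0.311). For TLN2 it was 0.25 (95% interval -0.67 to 1.16) and for ITGB3 0.26 (-0.65 to 1.16), intervals that hold both 0 and a 2-fold difference.

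Neighbouring parts of the pathway were followed with 3 further gene lists. Of the 9 remaining integrin subunits, most of them known from leukocytes and platelets, 5 were tested in SCR cells and 3 were raised with AAI (7.73% of all genes), ITGA2B (2.17), ITGB7 (1.88) and ITGA9 (1.17). In siB cells 6 were tested and 4 were raised (13.9% of all genes), ITGA2B (2.52), ITGA9 (1.99), ITGB7 (1.88) and ITGAM (1.77). ITGA2B, the platelet fibrinogen receptor subunit, went from 1.49 ± 0.260 to 10.2 ± 1.84 CPM in SCR cells. ITGB7, at 0.231 ± 0.121 CPM in SCR DMSO, passed the filter only through AAI libraries in both comparisons and so had to differ, as did ITGA9 in SCR cells (0.843 ± 0.403 CPM in SCR DMSO) and ITGAM in siB cells (0.223 ± 0.115 CPM in siB DMSO), so these counts are given as a description. Under AAI, ITGA9 was higher in siB than in SCR cells (1.01, adjusted p = 0.0426). ITGAM was at 3.21 ± 0.935 CPM in siB AAI and 0.639 ± 0.174 CPM in SCR AAI, and it passed the filter only through the siB AAI libraries.

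Of 38 other integrin activators and adaptors in the table, 35 were tested in either AAI comparison. In SCR cells 2 of 35 were raised (7.73% of all genes), FERMT3, the kindlin of blood cells (4.98, adjusted p = 5.3e-05), and CASS4, a relative of BCAR1 (2.91, adjusted p = 8.0e-04). Among the lowered genes was PDLIM7, an actin-associated adaptor (-1.04, adjusted p = 0.0293). In siB cells 3 of 35 were raised (13.9% of all genes), FERMT3, CASS4 and FBLIM1, and PDLIM7 and NEDD9 were among the lowered genes. FERMT3 reached 47.4 ± 3.66 CPM in SCR AAI from 0.539 ± 0.163 CPM, whereas the other kindlin genes FERMT1 and FERMT2 changed by 0.13 and 0.16 in SCR cells without passing the test. FERMT3 and CASS4 passed the filter only through AAI libraries. FBLIM1, at 1.05 ± 0.188 CPM in siB DMSO, did not meet the filter on its DMSO libraries alone. The raised counts of this list are therefore given as a description. Of 21 matrix ligands, 0 of 19 tested were called in SCR cells (7.73% of all genes raised and 2.73% lowered), and in siB cells 2 of 20 were lowered (5.79% of all genes), CYR61 (-1.55, adjusted p = 1.5e-05) and COL1A1 (-1.37, adjusted p = 0.00408). CYR61, a matrix protein and YAP target, was also lower in siB than in SCR cells under AAI (-1.13, adjusted p = 0.00938). Of the adaptors, FBLIM1 (1.36, adjusted p = 0.00766) and CASS4 (1.32, adjusted p = 0.0121) were higher in siB than in SCR cells under AAI by limma. These were 2 of 35 tested, against 3.04% of all genes raised. In siB versus SCR cells in DMSO none of the 3 lists had a call.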

How the data were processed

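RNA from 12 HK-2 libraries (4 groups of 3) was sequenced as paired ends. By the published methods, the authors mapped reads to hg38 and obtained gene counts from UCSC gene models of that build, using BioJupies. The aligner and the strand setting of the counting are not given in the sources used here, so reads of overlapping and antisense genes cannot be told apart. The authors deposited log10 values, log10(CPM + 1). CPM summed to 1000000 in each library, and whole reads were recovered for 100% of values up to 1000 reads (tolerance 0.05 reads). Groups were taken from the sample titles, since a treatment field read DMSO throughout.

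Differences were tested on log2(CPM + 1) with limma 3.58.1 (R 4.3.3, eBayes with a mean-variance trend), each pair of groups alone, over genes with at least 1 CPM in at least 3 libraries, with Benjamini-Hochberg adjustment over all genes tested. Genes were called at an adjusted p under 0.05 and 2-fold, and the interaction at an adjusted p under 0.05. The code was tested on simulated data. Replicates were not copies of each other (chi-square per degree of freedom of at least 4.23). Deviations of same-numbered libraries correlated at 0.422, 0.473 and 0.338 in SCR AAI with SCR DMSO and at 0.614, 0.318 and 0.292 in siB AAI with SCR AAI (15325 genes). Different-numbered libraries were not compared and the titles name no pairing, so it is not known whether the numbers pair these samples. Fits with the block are alternatives only. The other comparisons did not pass this check (0.726, 0.587 and -0.193 in siB DMSO with SCR DMSO, and 0.210, 0.026 and 0.195 in siB AAI with siB DMSO).

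Spans and coordinates are from GENCODE release 44 on hg38 (1-based) and 92.7% of 14465 genes with a mean of at least 1 CPM had one. Alternatives were another pseudocount, other filters, median-ratio scaling, CPM without AC010970.2 (a transcript that varied strongly within groups), 1 fit over all groups, a replicate block, voom on recovered reads, eBayes without the trend, calls without a fold limit, shifted span classes and leaving out each library. Genes called anywhere, ITGB1, ITGB3, VCL and ACTN1 are given per library, and the 3 largest calls of each further list and comparison. Others of those lists (ITGAM, PDLIM7 and NEDD9 among them) were named after their values were seen. Some genes and lists are not reported here. The genes and lists were chosen with earlier results of these data known.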

Additional observations from a re-analysis of the deposited data

How the results depend on the processing

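Of the values that answer a comparison, 200 kept their call or size under an alternative and 16 moved, and no called value changed sign. For single genes the numbers were 257 the same, 39 weaker and 2 stronger. The lowered genes with AAI in SCR cells numbered 3 with no filter and 3 with a mean of at least 5 CPM, and 1 to 6 with a library left out. The raised genes there numbered 1 with a mean of at least 5 CPM, a filter that removes ITGA11, and 1 to 3 with a library left out. In siB cells that filter likewise left 1 raised gene, and 14 genes were lowered with no fold limit. For siB versus SCR under AAI, leaving out a library gave 0 to 2 raised genes. The interaction count, 0, was 1 (VCL) with median-ratio scaling, 1 without AC010970.2, 1 with the replicate block and 0 to 1 with a library left out. For siB versus SCR in DMSO, the long minus short median, which has no test, was -0.06 and changed sign to 0.41 with class limits of 20 and 80 kb. The causes of these moves were not tested. The replicate block changed no other call at the fold limit. In siB cells, where the check of same-numbered libraries was not passed, the block gave 2 raised and 5 lowered genes with AAI, as without it. There 22 in place of 17 genes had an adjusted p under 0.05. The 2 count models planned for recovered reads were not run, because the deposited unit is a log scale. With 3 libraries a group, ITGA1, ITGB8 and ITGB6 had intervals wide enough that changes of more than 2-fold in SCR cells were not detectable.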

Other observations

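Several adhesion genes that are low in DMSO, chosen here after their values were seen, lie close behind an expressed gene on the same strand. FERMT3, which rose to 47.4 CPM in SCR AAI, begins 1382 bp beyond STIP1, whose mean went from 235 to 258 CPM between SCR DMSO and SCR AAI. ITGB7, which rose to 3.56 CPM, begins 3284 bp beyond RARG (19.6 and 23.6 CPM), ITGA2B 5631 bp beyond GPATCH8 (75.3 and 148 CPM) and CASS4 5749 bp beyond CSTF1 (42.5 and 47.0 CPM). ITGA9 begins 85235 bp beyond GOLGA4, and so does not share this feature. All 4 of these close neighbours had a higher mean in SCR AAI than in SCR DMSO. No link between neighbours was tested.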
